A study of Mus musculus with 12 samples.

Results

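The genotype by LPS interaction asks of each gene whether lipopolysaccharide (LPS), a bacterial endotoxin, changed its level in Adm+/- mouse lungs by a different amount than in wild-type (WT) lungs. It was computed as the log2 fold change of LPS against PBS in Adm+/- mice minus the same fold change in WT mice, from 1 fit of all 12 libraries, for the 21950 protein-coding genes of the 52550 genes in the deposited counts. Of these, 15885 genes (72.4%) held enough counts to be tested. A positive difference means that the LPS response was higher in Adm+/- mice, and a negative difference that it was lower or more negative.

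The libraries came from whole lungs of C57Bl/6J mice on postnatal day 5, with 3 mice in each group. Numbered as in the labels, libraries 3, 4 and 5 were WT PBS, libraries 9, 10 and 11 WT LPS, libraries 6, 7 and 8 Adm+/- PBS, and libraries 1, 2 and 12 Adm+/- LPS, and these numbers are used as replicate numbers. Mice of both genotypes had received Escherichia coli O55:B5 LPS at 6 mg/kg into the peritoneum, or PBS, once a day from postnatal day 3, for 3 doses. The whole lungs were extracted 6 h past the third injection. The WT mice are Adm+/+, and the Adm+/- mice carry a single functional copy of the gene in every cell of the body, so that loss in a single cell type is not modelled.

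Adm encodes adrenomedullin, a peptide hormone that acts on endothelial cells through the receptor Calcrl and its partners Ramp2 and Ramp3, and that is known for keeping vessels tight and dampening inflammation. LPS is sensed by Tlr4 with its co-receptor Cd14, which sets free the transcription factor NF-kappa B and, through secreted cytokines such as interleukin 1 and interleukin 6, leads to further rounds of transcription. In lung, the known products include chemokines that recruit leukocytes, adhesion molecules on endothelium and acute-phase proteins. In bulk tissue, fewer cells of a type and less RNA per cell cannot be told apart.

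Counts on genes ranged from 22382535 to 38062873 per library. Protein-coding genes took 77.8% of the counts in WT PBS replicate 5, 80.1% in Adm+/- PBS replicate 6 and 84.3% to 87.6% in the others. Y-linked genes summed to 145 CPM in WT PBS replicate 5, 270.1 CPM in WT LPS replicate 11 and 265 CPM in Adm+/- PBS replicate 8, and to at most 0.416 CPM in the other 9 libraries, which include all 3 Adm+/- LPS libraries. These 9 are called the libraries without Y-linked reads below. WT PBS replicate 4 held higher levels of many inflammatory genes than the other WT PBS libraries, and WT LPS replicate 11 lower levels than the other WT LPS libraries. Both deviations make a WT response smaller, and the pair is called the 2 deviating WT libraries below. Where leaving out either set moved a difference given below by more than 1.5 times or turned its sign, its value without them is given here or in the closing section. The targeted gene Adm was measured at 3.96, 7.09 and 4.57 CPM in WT PBS, 7.77, 8.15 and 4.46 CPM in WT LPS, 4.58, 2.87 and 3.62 CPM in Adm+/- PBS and 3.74, 6.28 and 3.92 CPM in Adm+/- LPS. The genotypes overlapped in both treatments, and the interaction for Adm was −0.05 (standard error 0.44, adjusted p = 0.997) in edgeR's quasi-likelihood test. It was −0.20 in the libraries without Y-linked reads and −0.56 without the 2 deviating WT libraries.

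Of the 15885 genes tested, 23 (0.145%) passed an adjusted p below 0.05 with an absolute log2 difference above 0.5 in edgeR's quasi-likelihood test. All 23 were lower in Adm+/- mice. No gene passed with a higher response, and the smallest adjusted p of such a gene from edgeR was 0.0644, for Pla1a. At an unadjusted p below 0.05, 583 genes (3.67%) had a higher and 664 genes (4.18%) a lower response in Adm+/- mice, 1247 genes (7.85%) together. DESeq2 put 168 genes past the threshold, 46 of them higher in Adm+/- mice, limma-voom 1 gene and limma-voom with sample quality weights 405 genes, 179 of them higher. The number of calls thus depended on the tool, and the values below are read beside these counts. With single libraries left out, the 23 became 5 to 11 without WT PBS replicate 3 or 4, WT LPS replicate 9 or any library of an Adm+/- group, and 65 without WT LPS replicate 10. The 583 genes became 387 without WT LPS replicate 11, of which 348 were among the 583.

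The 583 genes with a higher response fell into 3 patterns. In 423 of them the fitted LPS effect was positive in both genotypes and larger in Adm+/- mice, in 148 it was negative in WT and positive in Adm+/- mice, and in 12 it was negative in both. Of the 423 genes, 410 rose past the threshold in Adm+/- mice and 179 in WT mice. Of the 664 genes with a lower response, 308 had a positive effect in WT and a negative one in Adm+/- mice, 228 a negative effect in both, and 128 a positive effect in both. Of the 228 genes with a negative effect in both, 216 fell past the threshold in Adm+/- mice and 52 in WT mice. The median LPS effect of the 583 genes was 0.34 in WT and 1.09 in Adm+/- mice on the log2 scale, and that of the 664 genes was 0.37 and −0.59. The genes were chosen by this difference in the same fit, so the counts and medians by genotype describe the values that chose them. Between the LPS groups alone, every Adm+/- library lay above every WT library for 1942 genes (12.2% of those tested) and below it for 1973 genes (12.4%). By edgeR's test 52 genes (0.327%) were higher and 273 (1.72%) lower in Adm+/- than in WT mice after LPS, while 0 passed in either direction in PBS.

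**Figure D1:**
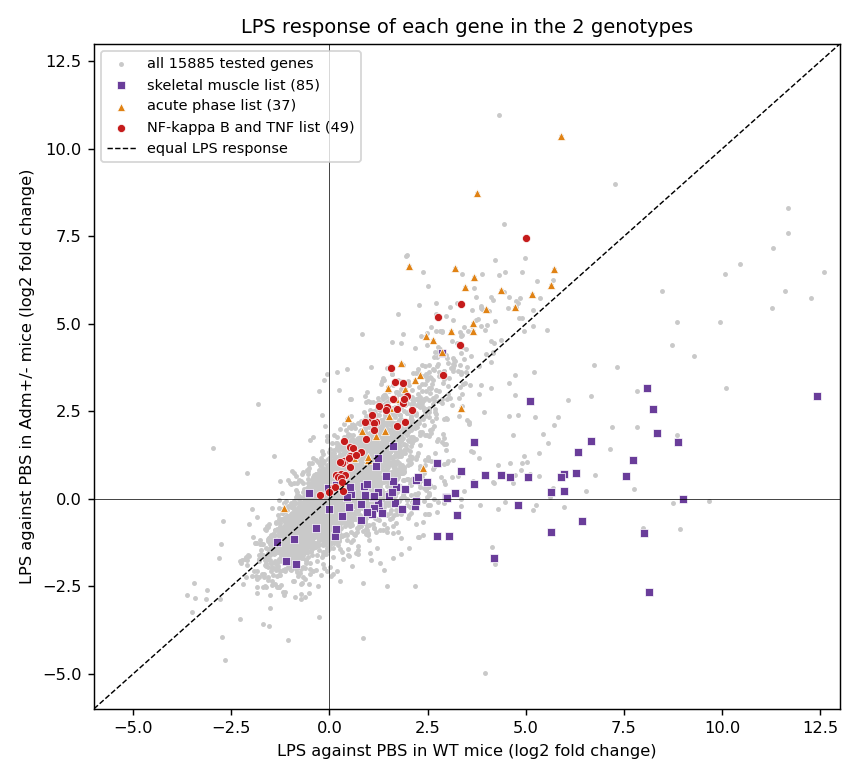
The LPS response of each tested gene in WT mice (x axis, log2 fold change) is plotted against that in Adm+/- mice (y axis, log2 fold change), with 4 genes outside the range shown. Many skeletal muscle genes lie at the right, far under the line of equal response, and NF-kappa B and acute-phase genes lie mainly above it, at a median of 1.97 and 3.88 in Adm+/- mice against 0.94 and 2.39 in WT mice.

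Contractile genes of skeletal muscle led the calls. In 74 of 85 listed members every WT LPS library lay above every Adm+/- LPS library, against 12.4% of all genes. The leading pair, Neb and Atp2a1, lie on the minus strand at chr2:52136647-52378474 and chr7:126445858-126463108 of mm10. Neb, which encodes the giant protein that spans the thin filament, had 12.5, 12.5 and 8.03 CPM in WT PBS, 244, 293 and 143 CPM in WT LPS, 10.9, 13.2 and 12.7 CPM in Adm+/- PBS and 22.4, 16.2 and 20.6 CPM in Adm+/- LPS. Atp2a1, the calcium pump of fast muscle fibers, had 1.63, 2.09 and 2.97 CPM in WT PBS, 134, 139 and 54 CPM in WT LPS, 2.89, 2.37 and 2.54 CPM in Adm+/- PBS and 3.89, 2.22 and 2.78 CPM in Adm+/- LPS. For both genes all 3 WT LPS libraries lay above the other 9, and replicate 11 was the lowest of the 3. The interaction was −3.68 (standard error 0.36, adjusted p = 0.0032) for Neb and −5.44 (standard error 0.53, adjusted p = 0.0032) for Atp2a1 in edgeR's test. Myom3, an M-band protein, differed by −4.09, the fast myosin light chain Mylpf by −5.53, the calcium release channel Ryr1 by −5.27 and the perinatal myosin heavy chain Myh8 by −6.62. Of 85 tested genes in a skeletal muscle list, 11 were among the 23 and 54 (63.5%) were lower at an unadjusted p below 0.05, against 4.18% of all genes, with 0 higher. Past the threshold, 57 of the 85 were higher in LPS than in PBS libraries of WT mice, against 10.5% of all genes. In Adm+/- mice 8 were higher, 7 of them in both genotypes, against 12.8% of all genes. Acta1, the skeletal actin, had a positive LPS effect in each genotype, 8.08 in WT and 3.16 in Adm+/- mice. The summed level of the list ranged from 3801 to 7706 CPM in WT LPS and from 962.2 to 1706 CPM over the other 9 libraries.

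The remaining 12 of the 23 genes stand outside that list, and several are known from muscle as well. Tmem38a (chr8:72572055-72587282), a cation channel of the sarcoplasmic reticulum, had 22, 15.3 and 19.8 CPM in WT PBS, 22.8, 25.2 and 22.3 CPM in WT LPS, 16.7, 17.7 and 20.04 CPM in Adm+/- PBS and 9.16, 9.26 and 8.09 CPM in Adm+/- LPS. The Adm+/- LPS libraries lay below the other 9, so that here the level fell with LPS in Adm+/- mice (−1.04 on the log2 scale, adjusted p = 0.00043 from edgeR) while the WT fold change was 0.30 (adjusted p = 0.158). Zcchc5, a gene of a retrotransposon-derived family on chromosome X (chrX:106837082-106840644), moved both ways. It had 3.22, 1.94 and 2.1 CPM in WT PBS, 4.87, 6.74 and 6.37 CPM in WT LPS, 1.53, 2.77 and 2.23 CPM in Adm+/- PBS and 0.486, 0.754 and 0.606 CPM in Adm+/- LPS. Its log2 fold change with LPS was 1.29 in WT mice, where it rose, and −1.83 in Adm+/- mice, where it fell, and its interaction was −3.12 (standard error 0.41, adjusted p = 0.0172) in edgeR's test.

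Over the 23 genes, 22 rose past the threshold in WT mice and 0 in Adm+/- mice, where 5 fell. These counts describe the same values that chose the genes. The muscle-linked genes among the 12 were Musk (the receptor kinase of the neuromuscular junction, interaction −4.05), Itgb1bp2 (melusin, −1.61), Cmya5 (myospryn, −1.94), Cavin4 (a caveolar protein of muscle, −1.66) and Apobec2 (a deaminase-family protein abundant in muscle, −2.48). The others were Lrtm1 (−2.54), AW551984 (−2.23), Fndc3c1 (−3.18), 1110002E22Rik (−2.94) and the T-box factor Tbx15 (−3.57). Listed muscle genes also called were Actn3 (−4.98), Tnnt3 (−4.46), Tnni2 (−5.27), Eno3 (−1.81) and Casq1 (−2.93). When the genes of the skeletal muscle, cardiac muscle and squamous epithelium lists were taken out before normalization, 0 genes were past the threshold in edgeR's test, with 591 higher and 590 lower at an unadjusted p below 0.05. This takes 11 of the 23 out by construction, while the differences of the other 12 stayed about as large, as with −3.12 for Zcchc5 and −1.33 for Tmem38a, and their adjusted p-values rose to between 0.0784 and 0.0847. Without Adm+/- PBS replicate 7, 5 of the 23 remained past it, all 5 in the muscle list. The part of the tissue taken at dissection in these differences was not tested.

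**Figure D2:**
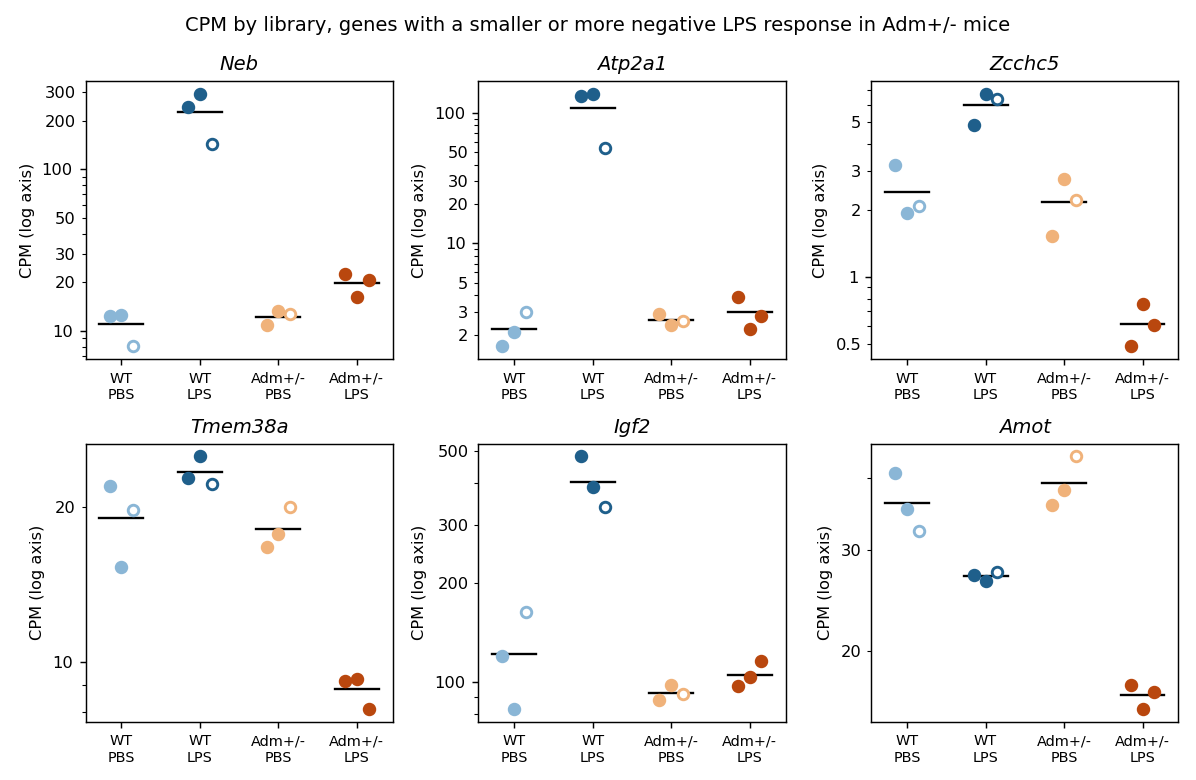
CPM of 6 genes in each library (y axis, log scale) is plotted by group, with a line at the mean of the 3 libraries and open symbols for libraries with Y-linked reads. Neb, Atp2a1 and Igf2 are highest in WT LPS, Tmem38a and Zcchc5 are lowest in Adm+/- LPS, and Amot is lower after LPS in both genotypes, with 15.8 to 17.5 CPM in Adm+/- LPS.

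The genes of smallest p for a higher response in Adm+/- mice included a lipase, a cytoskeletal protein and plasma proteins. The leading 12, taken outside the muscle and squamous lists from genes averaging 1 CPM or more, had adjusted p-values from 0.0644 to 0.176 in edgeR's test, so that none passed the threshold. In all 12, every Adm+/- LPS library lay above every WT LPS library, which describes the same values that chose them. All 12 rose past the threshold with LPS in Adm+/- mice, and 3 of them in WT mice. In 11 of the 12, WT LPS replicate 11 was the lowest of the WT LPS libraries.

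Pla1a (chr16:38396117-38433145, minus strand), a secreted phospholipase that acts on phosphatidylserine, had 0.621, 0.534 and 0.741 CPM in WT PBS, 4.9, 3.58 and 2.87 CPM in WT LPS, 0.21, 0.169 and 0.318 CPM in Adm+/- PBS and 7.63, 6.41 and 7.27 CPM in Adm+/- LPS. Its interaction was 2.32 (standard error 0.41, adjusted p = 0.0644) in edgeR's test, and values over all other settings ran from 2.11 to 3.45. Its PBS libraries did not overlap either, with Adm+/- below WT. Synpo, an actin-binding protein, had 103, 122 and 110.0 CPM in WT PBS, 166, 166 and 120.3 CPM in WT LPS, 94.3, 88.2 and 97.7 CPM in Adm+/- PBS and 263, 274 and 235 CPM in Adm+/- LPS. Adm+/- LPS libraries were the highest of the 12, and the interaction was 1.03 (standard error 0.18, adjusted p = 0.0671) in edgeR's test.

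Rgs16, a brake on G protein signaling, had 6.64, 8.44 and 6.73 CPM in WT PBS, 9.09, 7.9 and 6.33 CPM in WT LPS, 6.94, 6.52 and 6.68 CPM in Adm+/- PBS and 17.9, 16.8 and 15.6 CPM in Adm+/- LPS. Its level after LPS in WT mice overlapped that in PBS, and it rose only in Adm+/- mice by the threshold (1.32 against 0.10 on the log2 scale), with an interaction of 1.22 (standard error 0.22, adjusted p = 0.0792) in edgeR's test. Itih4, a plasma protein of the acute phase, had 10.9, 10.8 and 8.22 CPM in WT PBS, 34.3, 31.7 and 18.3 CPM in WT LPS, 7.63, 8.95 and 6.72 CPM in Adm+/- PBS and 80.4, 68.5 and 62.2 CPM in Adm+/- LPS. It rose in both genotypes, by 1.49 in WT and 3.18 in Adm+/- mice, and the interaction was 1.69 (standard error 0.31, adjusted p = 0.0819) in edgeR's test.

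Promoter sequence was at hand for 5 of the 12 genes, from RefSeq on GRCm38.p6 (mm10). The 250 bases before each start were searched on both strands for NF-kappa B (GGGA, any 4 bases, then CC), STAT (TTCNNNGAA) and AP-1 (TGANTCA) letters, which occur in 17.6%, 7.02% and 6.75% of all 32851 promoters. At least 1 of the 3 occurs in 29% of all promoters and in 35.3% of those of tested genes, and 2 of the 5 genes held a match, Rgs16 and Itih4. Of 8 further genes described below, searched after their values were seen, 6 had a promoter in the table, of which Icam1 and Cxcl2 held a match and Bcl3, Il1b, Cx3cl1 and Saa3 did not. The 4 genes with a match are shown. Capitals mark the match.
Rgs16, chr1:153740155-153740204, plus strand, NF-kappa B letters: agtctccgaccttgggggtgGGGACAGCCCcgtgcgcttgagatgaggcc
Itih4, chr14:30886405-30886453, plus strand, STAT letters: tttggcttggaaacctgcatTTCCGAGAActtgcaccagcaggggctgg
Icam1, chr9:21015878-21015926, plus strand, STAT letters: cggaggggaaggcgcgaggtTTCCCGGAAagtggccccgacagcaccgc
Cxcl2, chr5:90903782-90903831, plus strand, NF-kappa B letters: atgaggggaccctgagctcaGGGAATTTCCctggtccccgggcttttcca

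The STAT letters match on both strands, and in Cxcl2 a match on the opposite strand overlaps the one shown. The stretches lie before the RefSeq start, with the first base of the match 178 bases before it in Rgs16, 51 in Itih4, 42 in Icam1 and 97 in Cxcl2. Of the tested NF-kappa B and TNF genes with a promoter in the table, 16 of 39 (41%) held the NF-kappa B letters, against 26.0% of the 12137 tested genes with one. The share was 12 of 25 (48%) in the interleukin 6 and Stat3 list, 11 of 29 (37.9%) in the immediate early list, 7 of 28 (25%) in the acute-phase list and 8 of 59 (13.6%) in the skeletal muscle list. The STAT letters, in 7.29% of the same tested genes, were in 23.1% of the NF-kappa B and TNF list, 25% of the acute-phase list, 1 of 25 (4%) of the interleukin 6 and Stat3 list, 3.45% of the immediate early list and 1.69% of the muscle list. The AP-1 letters, in 6.15% of tested genes, were in 20.5%, 25%, 16%, 3.45% and 8.47% of these lists in the same order. A match is a string of letters and not a measured binding site.

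Cd14, the co-receptor that hands LPS to Tlr4, had 9.86, 15.8 and 13.1 CPM in WT PBS, 94.1, 82.3 and 36.8 CPM in WT LPS, 9.68, 10.1 and 7.47 CPM in Adm+/- PBS and 193, 269.8 and 222 CPM in Adm+/- LPS. The Adm+/- LPS libraries held more than any WT LPS library, among which replicate 11 was lowest. Its rise was 2.46 in WT and 4.65 in Adm+/- mice, and the interaction was 2.19 (standard error 0.43, adjusted p = 0.106) in edgeR's test. Without WT PBS replicate 4 and WT LPS replicate 11 the difference was 1.70, and 1.74 in the 9 libraries without Y-linked reads.

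Of the other genes in this group, Adamts4, a protease that cuts aggrecan, had 18.8, 18 and 24.5 CPM in WT PBS and 16.4, 15 and 9.92 CPM in WT LPS. It had 19.7, 18.9 and 19.1 CPM in Adm+/- PBS and 32.7, 37.2 and 31.5 CPM in Adm+/- LPS. With LPS its level fell in WT lungs (−0.57, edgeR adjusted p = 0.045) and rose in Adm+/- mice (0.81, adjusted p = 0.00576), with an interaction of 1.38 (standard error 0.26, adjusted p = 0.0819). Inhbb, a subunit of activin and inhibin, had 52.4, 26.3 and 28.6 CPM in WT LPS and 137, 142 and 122 CPM in Adm+/- LPS, and an interaction of 2.31 (standard error 0.50, adjusted p = 0.156) in edgeR's test. Without Y-linked libraries the Inhbb difference was 1.53.

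Mat1a, which makes S-adenosylmethionine, differed by 1.48, the GTPase Rhou by 0.81, the syntrophin Sntb2 by 0.73, Apol6 by 1.87 and the heme carrier hemopexin (Hpx) by 1.86. Rhou, Apol6 and Adamts4 belong to the 148 genes with a negative WT effect, as do the mitochondrial carrier Slc25a25 (0.77), the receptor kinase antagonist Spry4 (0.80) and the GTPase Gem (0.81), which were picked from that pattern by p after the values were seen. Apol6 overlaps the myoglobin gene Mb on the opposite strand, and Adamts4 also has an overlap there. Other genes given here do as well, among them Atp2a1 (with Rabep2), Junb (Prdx2), Prtn3 (Plppr3), Cebpd (Spidr) and Tnfrsf9 (Camta1). The counting is not stated to use strand, so reads of overlapping genes cannot be told apart.

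**Figure D3:**
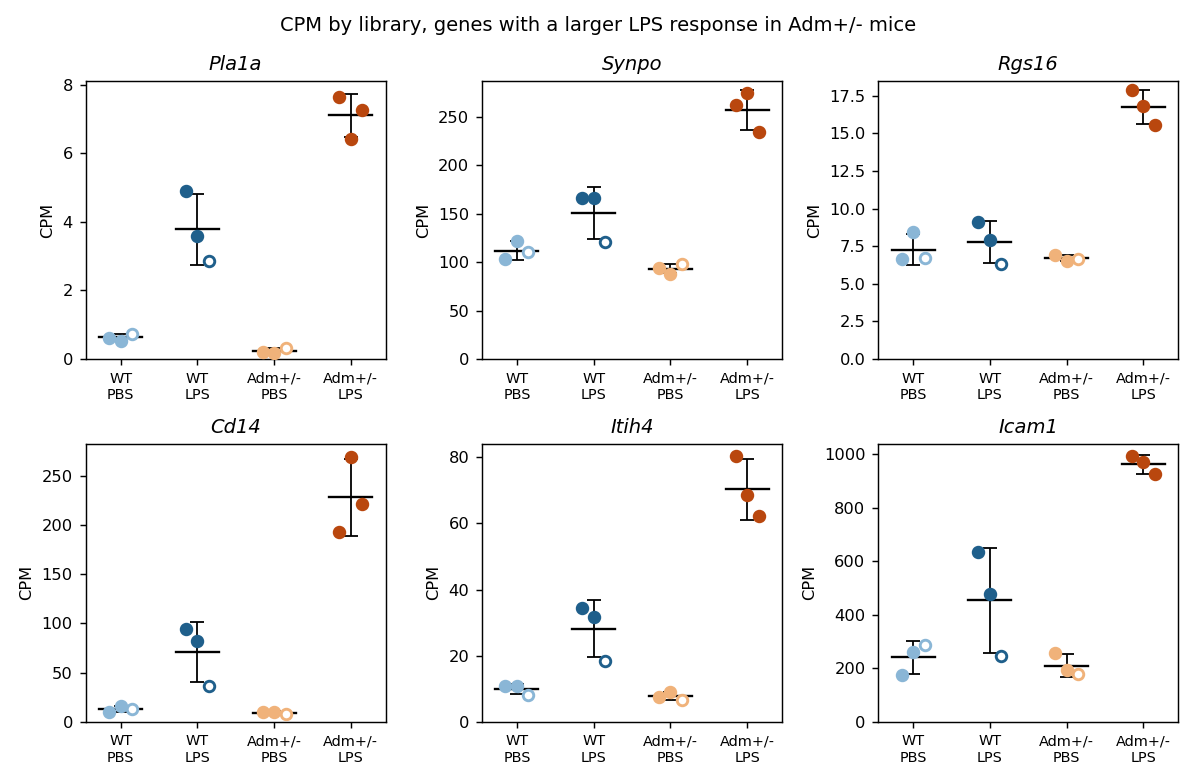
CPM of 6 genes in each library (y axis) is plotted by group, with a line at the mean, bars of 1 SD over the 3 libraries and open symbols for libraries with Y-linked reads. In each gene the 3 Adm+/- LPS libraries lie above the 3 WT LPS libraries, of which replicate 11 (open) is the lowest.

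Among genes of the NF-kappa B and TNF pathway, LPS responses were mainly higher in Adm+/- mice. Of 49 tested members of this list, 27 (55.1%) had a higher response at an unadjusted p below 0.05 and 0 a lower one, against 3.67% and 4.18% of all genes. The median interaction was 0.78 on the log2 scale, against −0.01 over all genes, and the interaction was positive in 48 of 49. No member passed the adjusted threshold, and the smallest adjusted p from edgeR was 0.382. After LPS, 30 members rose past the threshold in WT mice, where 10.5% of all genes did, and 43 in Adm+/- mice, where 12.8% did. All 30 were among the 43. In 36 members every Adm+/- LPS library lay above every WT LPS library, as in 12.2% of all genes.

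The mean log2 level of the list, relative to the mean of WT PBS, was −0.13, 0.29 and −0.16 in WT PBS replicates 3, 4 and 5. It was 1.56, 1.20 and 0.54 in WT LPS replicates 9, 10 and 11, −0.11, −0.09 and −0.21 in Adm+/- PBS replicates 6, 7 and 8, and 1.86, 1.95 and 1.83 in Adm+/- LPS replicates 1, 2 and 12. The Adm+/- LPS libraries were close together and above the WT LPS libraries, which spread over a range of about 1 log2 unit. WT LPS replicate 11 held the lowest value of its group in 43 of the 49 members, and WT PBS replicate 4 the highest of its group in 29. Without both libraries the median fell from 0.78 to 0.44, with 13 members at an unadjusted p below 0.05. The 27 became 11 without WT PBS replicate 4 alone and 16 without Adm+/- PBS replicate 8, and the 30 became 17 without WT LPS replicate 9. In the 9 libraries without Y-linked reads the median was 0.66, with 23 members.

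By role, the subunits of NF-kappa B itself differed by 1.17 (Nfkb2), 1.31 (Relb), 0.51 (Rela) and 0.41 (Nfkb1). Nfkb1, a member of high level, had 276, 259 and 199.6 CPM in WT LPS and 309, 342 and 301 CPM in Adm+/- LPS, with the groups apart and an unadjusted p of 0.0506 in edgeR's test. Without the 2 deviating WT libraries Nfkb2 differed by 0.78 and Relb by 0.73, and Nfkb1 by 0.18 in the libraries without Y-linked reads. Inhibitors that NF-kappa B induces and that shut it off differed as well, with 1.38 for Nfkbia, 1.42 for Tnfaip3 (A20) and 1.15 for Tnip1. Without the 2 deviating WT libraries these were 0.74 for Nfkbia and 0.77 for Tnfaip3, and Tnip1 was at 0.66 in the libraries without Y-linked reads. Bcl3, a nuclear cofactor of the same family, had 8.43, 28.7 and 9.27 CPM in WT PBS, 66.2, 47.9 and 23.3 CPM in WT LPS, 8.52, 9.53 and 7.08 CPM in Adm+/- PBS and 119, 108 and 110.1 CPM in Adm+/- LPS. Here WT PBS replicate 4 stood at 3 or more times the other PBS libraries. Bcl3 differed by 2.17 (standard error 0.63, adjusted p = 0.382) in edgeR's test, and by 1.05 without WT PBS replicate 4 and WT LPS replicate 11.

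Malt1, a protease and scaffold that leads from antigen receptors to NF-kappa B, had 34.4, 32.7 and 23.3 CPM in WT PBS, 91.2, 67.9 and 47.6 CPM in WT LPS, 27.5, 31 and 29.7 CPM in Adm+/- PBS and 132, 143 and 132 CPM in Adm+/- LPS, with an interaction of 1.01 (standard error 0.29, adjusted p = 0.382) in edgeR's test. Icam1, the endothelial adhesion molecule for leukocytes, had 173, 259.6 and 288 CPM in WT PBS, 637, 478 and 247 CPM in WT LPS, 259, 193 and 177 CPM in Adm+/- PBS and 993, 973 and 925 CPM in Adm+/- LPS. WT LPS replicate 11 lay within the range of the PBS libraries, while the Adm+/- LPS libraries stood above all others. The Icam1 interaction was 1.28 (standard error 0.41, adjusted p = 0.421) in edgeR's test, and 0.73 in the 9 libraries without Y-linked reads. The receptor Tlr2 (0.87), the prostaglandin synthase Ptgs2 (1.29) and the growth factors Csf1 (1.10) and Csf2 (1.67) were also among the 27. Tlr2 became 0.35 and Csf1 0.48 without the 2 deviating WT libraries.

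**Figure D4:**
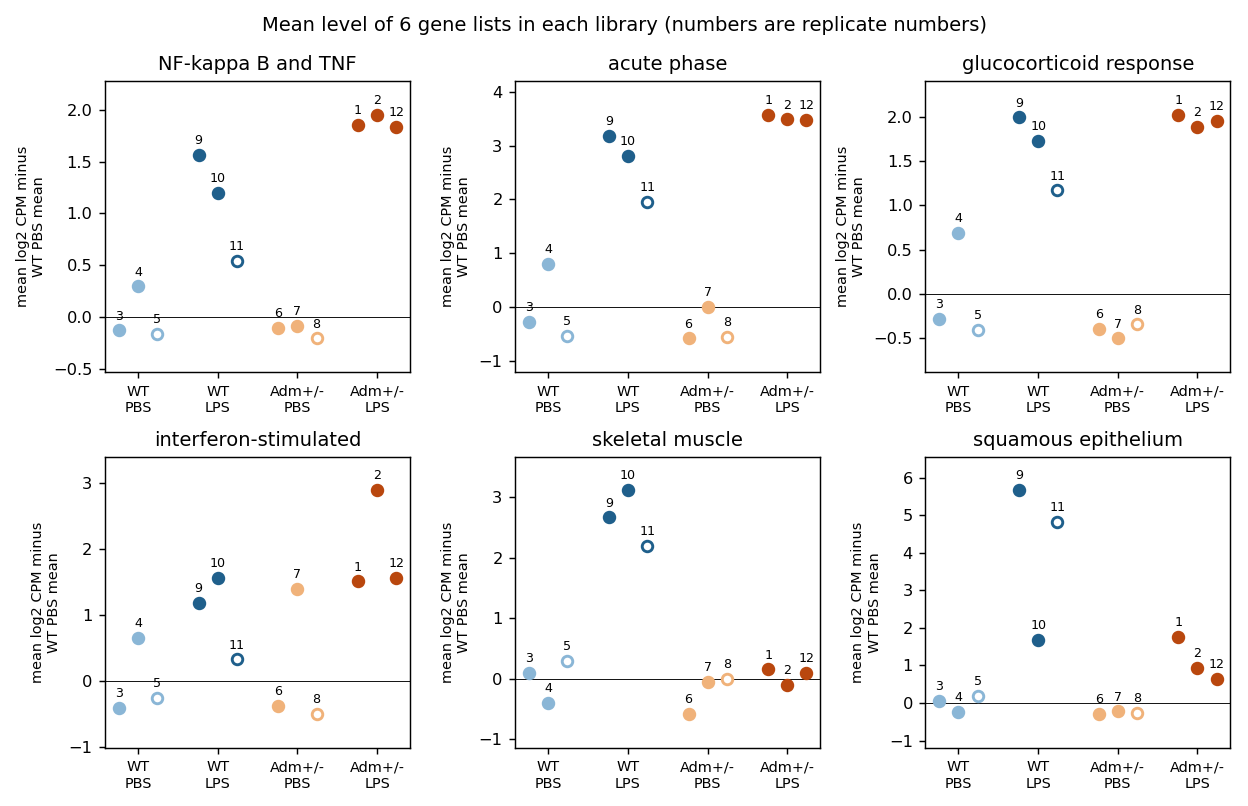
The mean log2 CPM of 6 gene lists is shown for each library relative to the WT PBS mean (y axis), by group, with the replicate number beside each point and open symbols for libraries with Y-linked reads. For NF-kappa B and TNF genes the Adm+/- LPS libraries stand at 1.83 to 1.95 and the WT LPS libraries at 0.54 to 1.56, while skeletal muscle genes stand highest in WT LPS, at 2.20 to 3.11.

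Chemokines, which draw leukocytes into tissue, showed the same direction with fewer members. Of 29 tested, 5 (17.2%) had a higher response at an unadjusted p below 0.05 and 0 a lower one, with a median of 0.82. They were Cxcl1, Cxcl2, Cxcl16 (0.51), Cxcl17 (0.82) and Cx3cl1. Without WT PBS replicate 4 and WT LPS replicate 11 the median was 0.13. Cx3cl1, the membrane-bound chemokine of endothelium and epithelium, had 17.4, 18.3 and 15 CPM in WT PBS, 23.2, 25 and 16 CPM in WT LPS, 17.3, 17 and 15.8 CPM in Adm+/- PBS and 38.9, 45.5 and 34.7 CPM in Adm+/- LPS. Its groups did not overlap after LPS, and its interaction was 0.91 (standard error 0.24, adjusted p = 0.29) in edgeR's test. Cxcl2, a neutrophil attractant, had 0.194, 0.922 and 0.0618 CPM in WT PBS, 15.4, 6.32 and 2.19 CPM in WT LPS, 0.0526, 0 and 0 CPM in Adm+/- PBS and 35.4, 47.6 and 30.3 CPM in Adm+/- LPS. The Adm+/- PBS libraries held at most 3 counts each, so no fold is given for it. The Adm+/- LPS libraries were all above the WT LPS libraries, which spread from 2.19 to 15.4 CPM. The 2 members of highest mean level did not share this pattern, as Ccl6 differed by 0.13 and Cxcl12 by −0.02, and for both the sign turned under other settings. In the libraries without Y-linked reads Ccl6 was at 0.54, and without the 2 deviating WT libraries at 0.04.

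In the interleukin 1 family, 4 of 18 members (22.2%) had a higher response at an unadjusted p below 0.05 and 0 a lower one, with a median of 0.44. Il1b, the cytokine itself, had 2.72, 10.4 and 3.27 CPM in WT PBS, 60.5, 38.3 and 21 CPM in WT LPS, 3.05, 2.94 and 2.47 CPM in Adm+/- PBS and 67.8, 84.5 and 82 CPM in Adm+/- LPS. The LPS groups were apart, and WT PBS replicate 4 was raised. Its interaction was 1.92 (standard error 0.66, adjusted p = 0.455) in edgeR's test, and 0.74 without WT PBS replicate 4 and WT LPS replicate 11. The receptor Il1r1 had 117, 99.2 and 56.1 CPM in WT LPS and 178, 153 and 164 CPM in Adm+/- LPS, with an interaction of 1.29 (standard error 0.47, adjusted p = 0.49) in edgeR's test, which became 0.78 without WT PBS replicate 4 and 0.53 without both deviating WT libraries. The alarmin Il33 differed by 1.32, the inflammasome sensor Nlrp3 by 0.75, and the interleukin 18 receptor chain Il18r1 by 0.11, a value that turned negative in 2 of 26 other settings. Il18r1 was at 0.32 in the libraries without Y-linked reads and 0.04 without the 2 deviating WT libraries. Il33 became 0.76 and Nlrp3 0.36 without the 2 deviating WT libraries, and Nlrp3 0.44 in the libraries without Y-linked reads. Without WT PBS replicate 4, 0 members were at an unadjusted p below 0.05, 2 without WT LPS replicate 11 or Adm+/- LPS replicate 1, 7 without WT PBS replicate 5 and 8 without WT LPS replicate 9.

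Interleukin 6 signals through Il6st (gp130) and Jak kinases to Stat3, which induces the inhibitor Socs3. In this list 12 of 32 members (37.5%) had a higher and 1 (3.12%) a lower response at an unadjusted p below 0.05, with a median of 0.45. Il6st had 307, 411 and 240.4 CPM in WT PBS, 621, 597 and 377 CPM in WT LPS, 243, 282 and 304 CPM in Adm+/- PBS and 884, 915 and 827 CPM in Adm+/- LPS, and its interaction was 0.93 (standard error 0.29, adjusted p = 0.416) in edgeR's test, or 0.51 without the 2 deviating WT libraries. Stat3 had 140.1, 322 and 171 CPM in WT PBS and 450.0, 411 and 281 CPM in WT LPS, 149, 157 and 143 CPM in Adm+/- PBS and 541, 535 and 517 CPM in Adm+/- LPS. The LPS groups of Stat3 were apart, but WT PBS replicate 4 reached the level of WT LPS replicate 11, and the Stat3 interaction of 0.97 (standard error 0.37, adjusted p = 0.508) became 0.36 without these libraries. Stat3 overlaps Stat5a on the opposite strand. The 12 members became 6 without WT PBS replicate 4 and 7 without WT LPS replicate 11 or Adm+/- LPS replicate 2.

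Further members with a higher response were Socs3 (2.11), the kinase Pim1 (1.17), the oncostatin receptor Osmr (2.03), Jak1 (0.47), Jak2 (0.53) and Jak3 (0.84). Without the 2 deviating WT libraries they were 0.96, 0.70, 0.59, 0.25, 0.31 and 0.41 in the same order. Il4ra, the interleukin 4 receptor chain, had 376, 288 and 175 CPM in WT LPS and 492, 492 and 500.1 CPM in Adm+/- LPS, with an interaction of 1.18 (standard error 0.36, adjusted p = 0.402) in edgeR's test, or 0.76 without those libraries. The exception was Il11, a fibroblast and epithelial cytokine of the same family, which had 0.155, 0.146 and 0.0618 CPM in WT PBS, 0.493, 0.582 and 0.757 CPM in WT LPS, 0.263, 0.27 and 0.159 CPM in Adm+/- PBS and 0.187, 0.0838 and 0.143 CPM in Adm+/- LPS. It was highest in WT LPS, near the lower end of detection, and its interaction was −2.92 (standard error 0.65, adjusted p = 0.176) in edgeR's test.

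Acute-phase genes, secreted defense and transport proteins that interleukins 1 and 6 induce, had the highest positive median interaction of the lists, 1.21. Of 37 tested members, 16 (43.2%) had a higher response at an unadjusted p below 0.05 and 0 a lower one. The median LPS effect was 2.39 in WT and 3.88 in Adm+/- mice. Past the threshold 27 and 32 members rose, against 10.5% and 12.8% of all genes. Haptoglobin (Hp), the hemoglobin carrier, had 151, 223 and 233 CPM in WT PBS, 1012, 865 and 428 CPM in WT LPS, 178, 141 and 119 CPM in Adm+/- PBS and 1429, 1117 and 1346 CPM in Adm+/- LPS. Its LPS groups were apart, with 1012 CPM in the highest WT library and 1117 CPM in the lowest Adm+/- library, and the interaction was 1.22 (standard error 0.40, adjusted p = 0.421) in edgeR's test, or 0.70 in the libraries without Y-linked reads.

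Serum amyloid A3 (Saa3) had 1.24, 38.1 and 1.61 CPM in WT PBS, 1193, 934 and 313 CPM in WT LPS, 1.58, 1.05 and 0.835 CPM in Adm+/- PBS and 1572, 1329.7 and 1561 CPM in Adm+/- LPS. WT PBS replicate 4 was more than 20 times the other PBS libraries, and among the LPS libraries the genotypes stood apart, with WT LPS replicate 11 the lowest. The Saa3 interaction of 4.46 (standard error 1.46, adjusted p = 0.431) became 0.80 without both. The list as a whole had a median of 0.66 without WT PBS replicate 4, with 5 members at an unadjusted p below 0.05, and 0.55 without both libraries, with 9. The protease inhibitor Serpina3n (4.99), the metalloreductase Steap4 (2.59), the complement factor Cfb (1.23) and metallothionein Mt1 (1.32) were further members with a higher response. Without the 2 deviating WT libraries Serpina3n was at 0.83, Steap4 at 0.96 and Mt1 at 0.68, and Cfb was at 0.78 in the libraries without Y-linked reads. A2m was the only one of the 16 whose fitted LPS effect was negative in both genotypes.

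Immediate early genes, transcription factors and regulators induced within minutes of a stimulus, had 10 of 41 members (24.4%) with a higher and 2 (4.88%) with a lower response at an unadjusted p below 0.05, and a median of 0.29. Past the threshold, 10 rose in WT mice, or 4 without WT LPS replicate 9, and 22 in Adm+/- mice. The shares of all genes that rose were 10.5% and 12.8%. Trib1, a pseudokinase, had 41.3, 48 and 39.4 CPM in WT PBS, 83.3, 68.7 and 59.1 CPM in WT LPS, 40.03, 39.8 and 40.8 CPM in Adm+/- PBS and 107, 114 and 91.3 CPM in Adm+/- LPS, and its interaction was 0.66 (standard error 0.19, adjusted p = 0.382) in edgeR's test. The AP-1 subunit Junb had 31.6, 70.2 and 69.99 CPM in WT PBS, 141, 85.6 and 72.8 CPM in WT LPS, 47.9, 34 and 36 CPM in Adm+/- PBS and 193, 168 and 172 CPM in Adm+/- LPS, with an interaction of 1.37 (standard error 0.43, adjusted p = 0.408). Fosl2, another AP-1 subunit, had 423, 265 and 204 CPM in WT LPS and 510.4, 472 and 436 CPM in Adm+/- LPS and differed by 1.17, while Jun, with a high level, differed by 0.28 (unadjusted p = 0.112). Fosl2 was at 0.63 without the 2 deviating WT libraries and Jun at 0.13 in the libraries without Y-linked reads. The 2 members with a lower response were Egr3 (−1.16, or −0.75 without the 2 deviating WT libraries) and Klf4 (−0.52).

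Genes that glucocorticoids induce rose with LPS in both genotypes. Past the threshold, 18 of 27 rose in WT mice, against 10.5% of all genes, and 23 in Adm+/- mice, against 12.8%. Of these 27 members, 5 (18.5%) had a higher response in Adm+/- mice at an unadjusted p below 0.05, with a median of 0.65. The median genotype difference over the list was −0.36 in PBS and 0.19 after LPS on the log2 scale. Zbtb16, a zinc finger factor and a sensitive glucocorticoid target, had 13.6, 179.5 and 18.8 CPM in WT PBS, 523, 531 and 327 CPM in WT LPS, 14.9, 10.8 and 11.6 CPM in Adm+/- PBS and 499, 475 and 484 CPM in Adm+/- LPS. The genotypes overlapped after LPS, WT PBS replicate 4 was more than 9 times the other PBS libraries, and the interaction of 2.59 (standard error 1.03, adjusted p = 0.542) became 0.26 without WT PBS replicate 4 and WT LPS replicate 11. Slc10a6 went from 2.89 to 0.80, Cebpd, shared with the immediate early list, from 2.09 to 0.77, and Lcn2, shared with the acute-phase and neutrophil lists, from 1.44 to 0.66. Without WT PBS replicate 4, 0 members of the list were at an unadjusted p below 0.05, 3 without WT LPS replicate 11 or Adm+/- PBS replicate 7, and 12 or 13 without WT PBS replicate 3 or 5 or WT LPS replicate 9. The 18 that rose in WT mice became 11 without WT LPS replicate 9.

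Interferon-stimulated genes, antiviral effectors induced by type I and type II interferon, varied between the libraries of each group. Of 47 tested members 0 were at an unadjusted p below 0.05 in either direction, with a median of 0.58. Past the threshold, 3 rose in WT mice, against 10.5% of all genes, and 19 in Adm+/- mice, against 12.8%. The mean level of the list relative to WT PBS was −0.40, 0.66 and −0.26 in the WT PBS libraries, 1.19, 1.57 and 0.33 in the WT LPS libraries, −0.38, 1.39 and −0.50 in the Adm+/- PBS libraries and 1.51, 2.89 and 1.56 in the Adm+/- LPS libraries. Adm+/- PBS replicate 7 was the highest of its group in 47 of 47 members, and Adm+/- LPS replicate 2 likewise in 47 of 47. In the WT groups, WT PBS replicate 4 was the highest in 42, and WT LPS replicate 10 the highest in 39 and replicate 11 the lowest in 44. Without Adm+/- PBS replicate 7 the median was 1.55, with 20 members at an unadjusted p below 0.05, and without Adm+/- LPS replicate 2 it was −0.00, with 0. It was −0.01 without WT PBS replicate 4 and WT LPS replicate 11. The 19 that rose in Adm+/- mice became 42 without Adm+/- PBS replicate 7, 8 without replicate 6 or 8 of that group and 7 without Adm+/- LPS replicate 2, and the 3 in WT mice became 1 to 5. Usp18, an interferon feedback inhibitor, had 11.6, 20.4 and 17 CPM in WT PBS, 22.7, 28.2 and 12 CPM in WT LPS, 11.7, 18.5 and 10.7 CPM in Adm+/- PBS and 25.8, 69.4 and 31 CPM in Adm+/- LPS and an unadjusted p of 0.0501 in edgeR's test. The interaction was 1.36 for Oas2, 0.63 for Iigp1 and −0.42 for Gbp4, the last 2 being of high level and variable in each group. In the libraries without Y-linked reads it was 0.80 for Usp18 and −0.98 for Gbp4. Without the 2 deviating WT libraries it was 0.68 for Oas2, 0.79 for Usp18 and −1.37 for Gbp4, and without Adm+/- LPS replicate 2 it was 0.71 for Oas2 and 0.70 for Usp18, whose full value was 1.26.

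**Figure D5:**
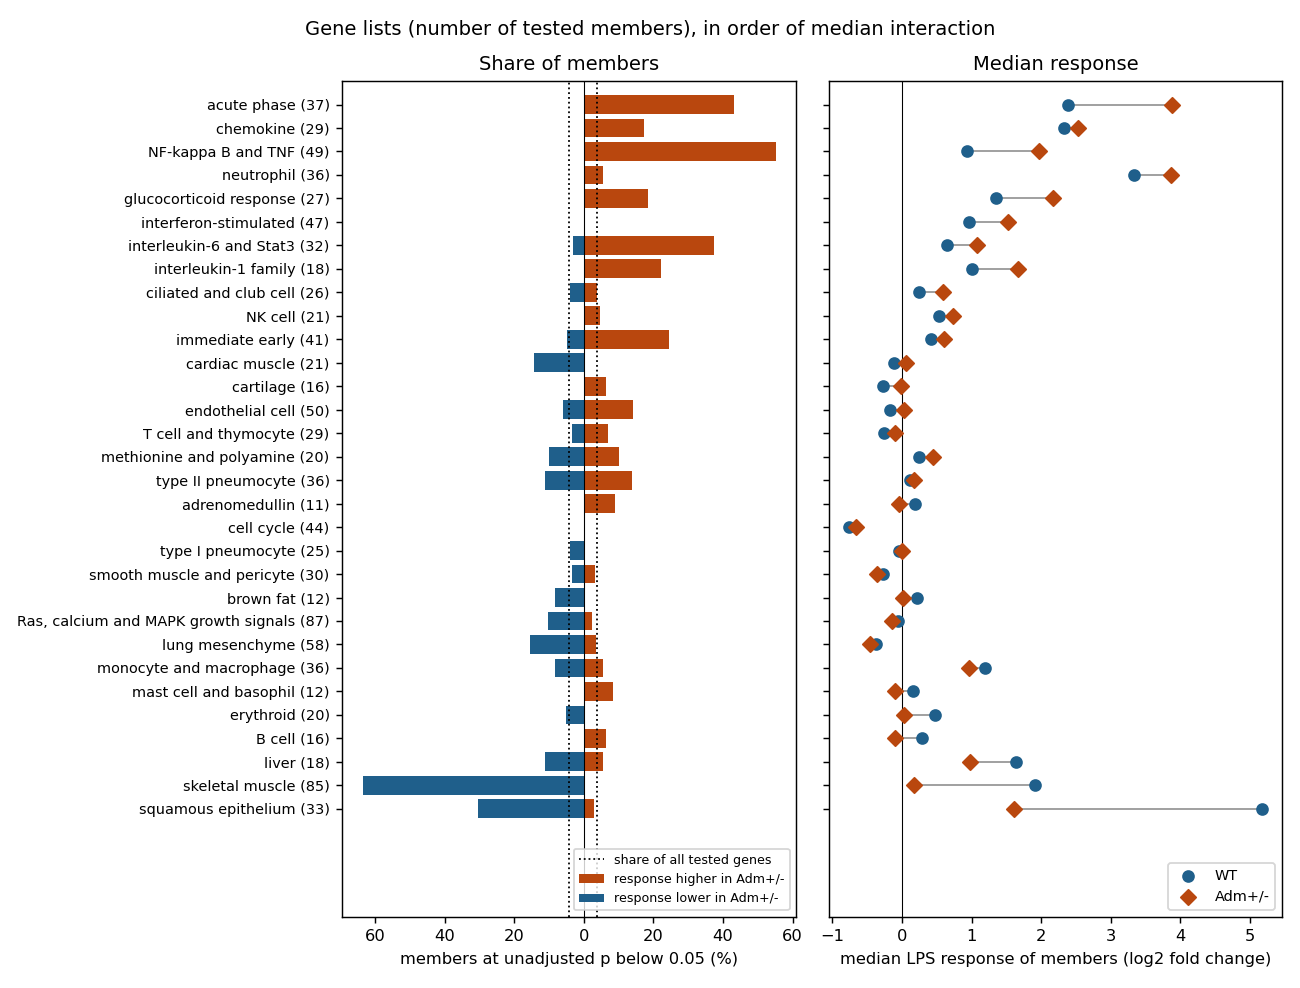
For each gene list (rows, number of tested members in parentheses), the left panel gives the share of members at an unadjusted p below 0.05 with a higher (right) or lower (left) LPS response in Adm+/- mice, with dotted lines at the shares of all genes, and the right panel the median log2 LPS response in each genotype. The NF-kappa B and TNF list has the largest share higher, 55.1%, and the skeletal muscle list the largest share lower, 63.5%.

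Lists that mark leukocytes had few members at an unadjusted p below 0.05. Neutrophil genes rose in both genotypes, 33 of 36 past the threshold in each, against 10.5% of all genes in WT and 12.8% in Adm+/- mice. At an unadjusted p below 0.05, 2 (5.56%) had a higher response, against 3.67% of all genes. The summed level of the neutrophil list ranged from 3220 to 5463 CPM in WT LPS and from 3815 to 4287 CPM in Adm+/- LPS. The summed levels of monocyte and macrophage genes and of NK cell genes did not overlap after LPS, with 6028 to 6737 CPM in WT and 7175 to 8160 CPM in Adm+/- mice for the former, and 132 to 195 CPM in WT and 258 to 298 CPM in Adm+/- mice for the latter. These sums follow the abundant members, and the mean log2 levels of both lists overlapped. Relative to WT PBS, the mean was 1.44, 0.95 and 1.41 in WT LPS and 1.09, 0.99 and 1.04 in Adm+/- LPS for monocyte and macrophage genes, and 1.10, 1.07 and 0.75 and 0.97, 1.56 and 1.16 for NK cell genes. Of the 36 monocyte and macrophage genes, 2 lay wholly above and 6 wholly below WT in the Adm+/- LPS libraries, with a median difference of −0.29 between the genotypes after LPS, and of 21 NK cell genes 5 lay above and 1 below. The shares of all genes were 12.2% above and 12.4% below. The calgranulin S100a9, abundant in neutrophils, had 890.3, 509.6 and 534 CPM in WT LPS and 536, 482 and 612 CPM in Adm+/- LPS, which overlap, while the granule protease Prtn3 differed by 2.01 (standard error 0.60, adjusted p = 0.401) in edgeR's test. In the interaction, 2 monocyte and macrophage genes were higher (Cd14 and Fn1) and 3 lower, among them Cx3cr1 and Cd163, with a median of −0.17. The lysozyme gene Lyz2 differed by 0.01, or by 0.12 in the libraries without Y-linked reads and 0.10 without the 2 deviating WT libraries. Fibronectin (Fn1), which stromal cells also make, differed by 0.67 (standard error 0.21, adjusted p = 0.411). The 2 neutrophil genes became 10 without WT PBS replicate 5, and the 3 lower monocyte genes 1 without WT LPS replicate 11 or Adm+/- LPS replicate 1. Of 21 NK cell genes 1 (4.76%) had a higher response, Tnfrsf9, a receptor of activated lymphocytes, with 12.1, 16.2 and 1.43 CPM in WT LPS and 36.4, 41.7 and 38.2 CPM in Adm+/- LPS and a difference of 2.60, or 1.43 without the 2 deviating WT libraries. Tnfrsf9 was named by the study from these same libraries and is no independent support.

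No endothelial gene passed the adjusted threshold, and the smallest adjusted p from edgeR was 0.397. Of 50 tested, 7 (14%) had a higher and 3 (6.00%) a lower response at an unadjusted p below 0.05, against 3.67% and 4.18% of all genes. The median interaction of the list was 0.16, and it was positive in 32. The median LPS effect was −0.18 in WT and 0.03 in Adm+/- mice, so that a positive interaction here includes a smaller fall. After LPS, 15 of the 50 lay wholly above and 4 wholly below WT in the Adm+/- libraries, against 12.2% and 12.4% of all genes. The summed level of the endothelial list was 10288 to 10341 CPM in WT LPS and 10801 to 11733 CPM in Adm+/- LPS, beside 11311 to 12018 CPM in WT PBS and 11169 to 11751 CPM in Adm+/- PBS. The apelin receptor Aplnr had 129, 125 and 95.8 CPM in WT PBS, 102, 111 and 84.9 CPM in WT LPS, 114, 142 and 146 CPM in Adm+/- PBS and 189, 209.6 and 166 CPM in Adm+/- LPS. It was highest in Adm+/- LPS, and its interaction was 0.73 (standard error 0.21, adjusted p = 0.397) in edgeR's test. Others with a higher response were Robo4 (0.56), Procr (0.55) and the scavenger receptor Ackr3 (0.62), and the prostaglandin-degrading enzyme Hpgd (−1.19), S100a16 (−0.45) and Ppp1r16b (−0.79) had a lower one. S100a16 and Ppp1r16b were named by the study from these same libraries and are no independent support. The defining cadherin Cdh5 had 638, 605 and 558 CPM in WT LPS and 768, 764 and 679 CPM in Adm+/- LPS, and differed by 0.25 (unadjusted p = 0.153 from edgeR), and the receptor Bmpr2 differed by 0.16. In the libraries without Y-linked reads Robo4 was at 0.33, Procr at 0.36, Hpgd at −0.59 and Bmpr2 at 0.44, and without the 2 deviating WT libraries Ppp1r16b was at −0.46, Cdh5 at 0.14 and Bmpr2 at 0.05. The 7 became 3 or 4 without WT LPS replicate 11, Adm+/- PBS replicate 7 or Adm+/- LPS replicate 1 or 2, and the 3 became 5 without WT PBS replicate 5 or WT LPS replicate 9.

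Type II pneumocyte genes, of the cells that make surfactant, had 5 of 36 members (13.9%) higher and 4 (11.1%) lower, with a median of 0.07. Sftpc, the defining surfactant gene, ranged from 7628 to 11605 CPM over the 12 libraries and differed by 0.05. The sodium-phosphate carrier Slc34a2 differed by 0.34 and the collectin Sftpd by 0.79. Etv5, a factor downstream of FGF signaling that maintains these cells, had 169, 153 and 139 CPM in WT PBS, 96, 98.1 and 150.1 CPM in WT LPS, 159, 158 and 178 CPM in Adm+/- PBS and 83.1, 59.8 and 60.9 CPM in Adm+/- LPS. It was lowest in Adm+/- LPS and did not differ in WT past the threshold, and its interaction was −0.86 (standard error 0.26, adjusted p = 0.401) in edgeR's test, or −0.49 in the 9 libraries without Y-linked reads. Bex2 differed by −0.65, and Lgi3 (−0.51) and Myo5c (−0.40) were the others with a lower response. Lgi3 and Myo5c were named by the study from these same libraries, so they are no independent support for this list. In the libraries without Y-linked reads Sftpd was at 0.45 and Myo5c at −0.20, and without the 2 deviating WT libraries Lgi3 was at −0.34 and Myo5c at −0.25. The 5 became 1 or 2 without WT PBS replicate 4, WT LPS replicate 11 or Adm+/- LPS replicate 1 and 10 without WT PBS replicate 5, and the 4 became 2 without WT LPS replicate 11. Of 44 cell cycle genes, 20 fell past the threshold in WT mice, where 7.09% of all genes did, and 20 in Adm+/- mice, where 12.2% did, with 0 at an unadjusted p below 0.05 in the interaction.

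Among genes of lung mesenchyme, 9 of 58 (15.5%) had a lower and 2 (3.45%) a higher response at an unadjusted p below 0.05, with a median of −0.16. The 9 became 4 without WT LPS replicate 11 and 5 without Adm+/- PBS replicate 7 or Adm+/- LPS replicate 1. They followed either of 2 courses. Igf2 (chr7:142650766-142666816, minus strand), the fetal growth factor, had 120.1, 82.7 and 162 CPM in WT PBS, 483, 389 and 339 CPM in WT LPS, 88.2, 97.7 and 91.8 CPM in Adm+/- PBS and 96.8, 104 and 115 CPM in Adm+/- LPS. In WT mice it rose by 1.73 on the log2 scale (edgeR adjusted p = 0.00042), and it had a fold change of 0.19 in Adm+/- mice, the course of the muscle genes, with an interaction of −1.55 (standard error 0.29, adjusted p = 0.0862). The proteoglycan Lum (−2.09), Lgr5 (−1.55), Rspo3 (−1.11) and the homeobox gene Nkx6-1 (−5.45) likewise had a positive LPS effect in WT mice that was larger than that in Adm+/- mice. Without Adm+/- PBS replicate 7 Lum was at −1.21. Nkx6-1 had 3.82, 4.32 and 10.8 CPM in WT LPS, with replicate 11 highest, and at most 0.27 CPM in any other library.

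Fgf10, the ligand that drives lung branching and lipofibroblast formation, followed the other course. It had 39.4, 24.9 and 35.4 CPM in WT PBS, 16.7, 20.9 and 25.6 CPM in WT LPS, 36, 40.8 and 44.7 CPM in Adm+/- PBS and 13.4, 15.8 and 12.5 CPM in Adm+/- LPS. Past the threshold it fell in both genotypes, with log2 fold changes of −0.66 in WT and −1.54 in Adm+/- mice, the Adm+/- LPS libraries were below all others, and the interaction was −0.89 (standard error 0.27, adjusted p = 0.408) in edgeR's test. Without WT PBS replicate 4 and WT LPS replicate 11 it was −0.55. Rspo2 (−1.95), Meox2 (−0.88) and the receptor Fgfr3 (−0.91) also had a negative effect in both, and were at −0.94, −0.24 and −0.50 without the 2 deviating WT libraries, with Meox2 at −0.54 in the libraries without Y-linked reads. Elastin (Eln) and Macf1, the members of highest level, differed by 0.70 and −0.12. The Eln value was 0.15 without WT PBS replicate 5 and 0.09 in the libraries without Y-linked reads, and Macf1 was at −0.03 without the 2 deviating WT libraries.

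A list of growth factors, their receptors and calcium and MAPK signaling genes had 9 of 87 members (10.3%) lower and 2 (2.30%) higher, and a median of −0.07. Beside Igf2, Fgf10 and Fgfr3, the muscarinic receptors Chrm2 (−0.87) and Chrm3 (−1.50) and the ephrin receptor Epha7 (−0.66) had a lower response, with Chrm2 at −0.33 and Epha7 at −0.43 in the libraries without Y-linked reads. Nos1, a nitric oxide synthase found in nerve and muscle, had 3.24, 5.95 and 4.98 CPM in WT LPS, and its interaction was −2.50 (standard error 0.55, adjusted p = 0.176) in edgeR's test. The vascular receptor Kdr and its ligand Vegfa, the members of highest level, differed by −0.32 and 0.22. They were at −0.17 and 0.11 in the libraries without Y-linked reads, and Kdr at −0.10 without the 2 deviating WT libraries.

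A further 6 genes were picked by p, after the values were seen, from the 228 whose LPS effect was negative in both genotypes and more so in Adm+/- mice, where all 6 fell past the threshold. Amot (chrX:145446425-145505181, minus strand), an angiomotin that regulates cell junctions and Yap, had 40.7, 35.3 and 32.3 CPM in WT PBS, 27.1, 26.4 and 27.4 CPM in WT LPS, 35.9, 38 and 43.6 CPM in Adm+/- PBS and 17.5, 15.8 and 17 CPM in Adm+/- LPS. Its log2 fold change with LPS was −0.42 in WT mice, short of the fold limit, and −1.22 in Adm+/- mice, and the interaction was −0.80 (standard error 0.16, adjusted p = 0.117) in edgeR's test, with −0.90 to −0.63 over all other settings. Mrgprf, an orphan receptor, had 2.56, 2.7 and 4.78 CPM in WT LPS and 1.08, 0.964 and 0.926 CPM in Adm+/- LPS, and differed by −1.69 (standard error 0.34, adjusted p = 0.122). The sterol hydroxylase Cyp27a1 (−1.41), the creatine-synthesis enzyme Gamt (−1.12), the sodium-calcium exchanger Slc8a3 (−1.60) and D930048N14Rik (−1.01) had adjusted p-values from 0.13 to 0.21 in edgeR's test. All 6 were lower in each Adm+/- LPS library than in any WT LPS library, which describes the same values that chose them. The same held for 557 of the 664 genes with a lower response.

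Squamous epithelium genes, keratins and other genes of stratified linings that lung parenchyma lacks, were high in part of the WT LPS group. Krt13 had 1027, 9.52 and 542 CPM in WT LPS replicates 9, 10 and 11, 13, 2.43 and 0.356 CPM in Adm+/- LPS and at most 0.155 CPM in any PBS library. Krt4 had 1382, 11 and 755 CPM and 19.3, 4.82 and 1.75 CPM in the same groups, and Krt15 449.9, 7.24 and 230.1 CPM and 6.51, 2.77 and 2.49 CPM. Of 33 tested members, 10 (30.3%) were lower at an unadjusted p below 0.05, or 16 without WT LPS replicate 10, and 1 (3.03%) was higher, the transglutaminase Tgm1 (1.27, or 0.40 without the 2 deviating WT libraries). The median interaction was −3.61. Of 54 genes of this list in the counts, only these 33 held enough counts to be tested. Members such as Krt13 can pass that filter through the WT LPS libraries where they are high, so the share and the median are no independent support. WT LPS replicate 9 was the highest of its group in 30 of the 33 and replicate 10 the lowest in 32. Barx2, a homeobox gene of the list, was even over the WT LPS libraries with 8.91, 7.44 and 8.6 CPM against 2.17, 2.56 and 2.35 CPM in Adm+/- LPS, and its interaction was −1.68 (standard error 0.37, adjusted p = 0.163) in edgeR's test. The part of these and of the muscle genes in the other differences was not tested.

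Of 11 tested genes of the adrenomedullin pathway, 1 (9.09%) had a higher response at an unadjusted p below 0.05, the decoy receptor Ackr3, or 3 without WT LPS replicate 10. Ackr3 had 36.2, 35.6 and 29.2 CPM in WT PBS, 66.3, 62.5 and 49.3 CPM in WT LPS, 28.3, 38 and 36.9 CPM in Adm+/- PBS and 83.3, 113 and 82.4 CPM in Adm+/- LPS, and it rose past the threshold in both genotypes. The receptor partner Ramp3 had 3.53, 3.83 and 6.73 CPM in WT PBS, 8.69, 10.3 and 5.58 CPM in WT LPS, 5.47, 3.45 and 3.14 CPM in Adm+/- PBS and 12.3, 14.3 and 12.5 CPM in Adm+/- LPS, with an interaction of 0.89 (standard error 0.42, adjusted p = 0.652) in edgeR's test, or 0.20 in the 9 libraries without Y-linked reads. The receptor Calcrl differed by −0.39, and the amidating enzyme Pam, which finishes the peptide, by 0.26.

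Of 19 genes that the study names for the mouse lungs, 7 had a higher and 6 a lower response at an unadjusted p below 0.05, and 6 neither. These genes were chosen from the same libraries and are no independent support. Of the 19, 18 also stand in other lists given here, such as Fgf10 in the lung mesenchyme list, and are counted there as well. The synaptotagmin Syt6 had 6.76, 9.61 and 6.8 CPM in WT PBS, 2.37, 2.83 and 2.71 CPM in WT LPS, 6.42, 5.71 and 7.51 CPM in Adm+/- PBS and 4.86, 3.48 and 3.49 CPM in Adm+/- LPS. It fell past the threshold in both, with log2 fold changes of −1.55 in WT and −0.73 in Adm+/- mice, so that its positive interaction of 0.82 (standard error 0.29, adjusted p = 0.467) in edgeR's test stands for a smaller fall. Cxcl1 had 6.04, 1.83 and 0.558 CPM in WT LPS and 10.2, 18.4 and 15.5 CPM in Adm+/- LPS, where the groups were apart, and an interaction of 2.90 (standard error 1.15, adjusted p = 0.539) in edgeR's test, or 1.58 without the 2 deviating WT libraries.

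In the remaining lists few members were at an unadjusted p below 0.05. T cell and thymocyte genes had 2 of 29 higher (6.90%) and 1 lower (3.45%), B cell genes 1 of 16 higher, mast cell and basophil genes 1 of 12 higher and erythroid genes 1 of 20 lower. Type I pneumocyte genes had 1 of 25 lower, ciliated and club cell genes 1 of 26 in each direction, and smooth muscle and pericyte genes 1 of 30 in each direction. Tissues next to the lung had 1 of 16 cartilage genes higher, 1 of 12 brown fat genes lower, 3 of 21 cardiac muscle genes lower, and 1 of 18 liver genes higher and 2 lower. Genes of methionine and polyamine metabolism, which include Mat1a, had 2 of 20 in each direction. Counts this small moved with single libraries, as that of the erythroid genes did from 1 to 6 without WT PBS replicate 4.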

How the data were processed

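The authors trimmed reads with Trim Galore, aligned them to mm10 with HISAT2 and counted them on genes with featureCounts, and deposited raw counts without normalization for 12 libraries. The strand setting and annotation release are not given in the sources used here. Counts range from 22382535 to 38062873 per library and carry no molecular identifiers, so reads are not independent molecules. The software was edgeR 4.0.16, DESeq2 1.42.0 and limma 3.58.1 under R 4.3.3. Protein-coding genes passing filterByExpr were normalized by TMM and fitted with 1 coefficient per group (glmQLFit and glmQLFTest, 8 residual degrees of freedom), with Benjamini-Hochberg adjustment over 15885 genes, and the fit was tested on simulated data. Standard errors are the estimate over the root of F. Log2 CPM used a prior count of 2.

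The genes, lists and tests were chosen with earlier results of these data known. Named genes are the 20 called ones of smallest p, the 12 of smallest p in each direction with a mean of at least 1 CPM outside the muscle and squamous lists, the 3 muscle genes of smallest p, 2 per other list by p and 2 by level, Adm and genes the study names, besides those said to be picked later and list members at an unadjusted p below 0.05. All 12 pairs of libraries within groups differed by more than sampling noise (chi-square over degrees of freedom from 9.92 to 112). Gencode M21 on mm10, in which 99.9% of tested genes were found, gave positions and overlaps. Litters are not named, so p-values measure only the spread between these mice. Alternatives changed the normalization, the low-count filter, the tool, the gene set, covariates and the libraries. A few genes are not reported here.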

Additional observations from a re-analysis of the deposited data

Results flagged for a closer look

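For 23 genes, all with a lower response in Adm+/- mice, the LPS effect differed between the genotypes by edgeR's interaction test, and these are given with their log2 difference. With groups of 3, no single library was tested as an outlier. Among listed skeletal muscle genes it was −5.44 for Atp2a1, −3.68 for Neb, −4.09 for Myom3, −5.53 for Mylpf, −5.27 for Ryr1, −6.62 for Myh8, −4.98 for Actn3, −4.46 for Tnnt3, −5.27 for Tnni2, −1.81 for Eno3 and −2.93 for Casq1. Among the other genes it was −3.12 for Zcchc5, −2.54 for Lrtm1, −2.23 for AW551984, −4.05 for Musk, −1.61 for Itgb1bp2, −1.34 for Tmem38a, −2.94 for 1110002E22Rik, −1.94 for Cmya5, −3.18 for Fndc3c1, −3.57 for Tbx15, −1.66 for Cavin4 and −2.48 for Apobec2. In all 23, the 3 WT LPS libraries lay above the other 9 libraries, which describes the same values that chose them.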

How the results depend on the processing

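No paired analysis was possible because the replicate numbers are library numbers and no number occurs in more than 1 group. The 23 genes past the threshold became 168 with DESeq2, 1 with limma-voom, 405 with limma-voom and sample quality weights, and 37 with the protein-coding share as a covariate. They became 0 with the muscle and squamous lists removed or with the mean of the muscle list as a covariate, a term that is high only in WT LPS. The count was 13 with glmTreat, 104 at an adjusted p below 0.25 and 1247 at an unadjusted p below 0.05. With single libraries left out it was lowest at 5, with Adm+/- PBS replicate 7 out, and highest at 65, with WT LPS replicate 10 out. It was 19 without WT PBS replicate 4 and WT LPS replicate 11, and 21 in the libraries without Y-linked reads, 2 settings chosen after seeing the data. In these 2, 237 and 311 of the 583 genes with a higher response remained at an unadjusted p below 0.05. With the muscle covariate 65 of the 583 and 109 of the 664 genes with a lower response remained, of 169 and 215 in all, and with sample quality weights 1324 and 1424 genes were at that level, 549 and 596 of them shared.

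Among the genes named, the sign of the interaction turned as follows. With the muscle covariate it was −0.58 for Saa3, −1.51 for Zbtb16, −2.87 for S100a9, −0.48 for Il18r1, 0.62 for Gbp4, −0.47 for Ccl6, −0.084 for Sftpc and −0.65 for Lyz2. Without WT PBS replicate 4 and WT LPS replicate 11 it was −0.44 for S100a9, −0.0956 for Iigp1 and 0.17 for Cxcl12, and in the libraries without Y-linked reads 0.10 for Calcrl, 0.000558 for Macf1, −0.12 for Sftpc and 0.23 for Cxcl12. It was 0.30 for Gbp4 with limma-voom, 0.24 for Gbp4 and 0.24 for Adm with sample quality weights, −0.0121 for Ccl6 and −0.00421 for Lyz2 with the protein-coding share, −0.0258 for Ccl6, 0.0578 for Cxcl12 and −0.0362 for Lyz2 with a Y-linked covariate, and 0.21 for Adm and 0.00926 for Cxcl12 without WT PBS replicate 5 and Adm+/- PBS replicate 6. Over the fits that left out 1 or 2 libraries it ran from −0.44 to 1.42 for S100a9, from −0.0956 to 1.48 for Iigp1, from −0.0216 to 0.25 for Il18r1, from −0.0123 to 0.38 for Bmpr2, from −1.37 to 1.34 for Gbp4, from −0.11 to 0.45 for Ccl6, from −0.0554 to 0.20 for Sftpc, from −0.56 to 0.21 for Adm, from −0.22 to 0.19 for Cxcl12 and from −0.10 to 0.18 for Lyz2. The causes were not tested. With 3 mice per group and 8 residual degrees of freedom, the median standard error of an interaction was 0.26 on the log2 scale, so that a difference that missed the threshold is not shown to be absent.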
